A study of Arabidopsis thaliana with 6 samples.

Results

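The comparison described here is the return of *SEP3* to flowers of *Arabidopsis thaliana* labelled *sep1 sep2 sep3*. It sets the 2 RNA-seq libraries of *sep1 sep2 sep3* expressing *SEP3*, line 1 and line 2, against the 2 libraries labelled *sep1 sep2 sep3*, called the triple-labelled libraries below, so 4 of the 6 libraries of the series enter it. The other 2 libraries, of *sep1 sep2*, served as a reference level and helped to estimate the spread between libraries. All 6 were made from inflorescence meristems with flower buds, the oldest at stages 10 to 11, and every plant, the reference included, carried the *sep1* and *sep2* mutations. The 2 SEP3 lines are independent lines with 1 library each, and they were treated as replicates of the group. The promoter in front of the reintroduced *SEP3* is not given in the sources used here. Genes with at least 1 count per 1000000 (CPM) in 2 or more of the 4 libraries were tested, which left 18661 of the 33610 genes in the deposited table. CPM values below were normalized between libraries by the trimmed mean of M-values (TMM).

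SEPALLATA genes encode MADS-domain transcription factors of the E class. Their proteins join with those of the other organ identity classes in tetramers that bind pairs of CArG boxes, and so take part in specifying petals, stamens and carpels and in ending the activity of the floral meristem. Flowers lacking *SEP1*, *SEP2* and *SEP3* form sepal-like organs in place of petals, stamens and carpels. In stamens the tapetum, the innermost wall layer of the anther, feeds the developing pollen and delivers the precursors of the pollen wall and coat.

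Sequencing depth was similar across the libraries, with between 24000063 and 31263376 counts each. The flower genes *AP1*, *AP3*, *PI*, *AG* and *LFY* were detected in every library, while summed levels stayed at or below 2.01 CPM for 6 mature pollen genes, 0.67 CPM for 4 seed storage genes and 1.67 CPM for 4 root genes. Clock genes differed between libraries of the same genotype: *LHY* had 17.4 and 107 CPM in the triple-labelled libraries and 38.6 and 24.3 CPM in lines 1 and 2, and *FKF1* had 21.1 and 0.472 CPM against 3.99 and 20.2 CPM. The time of harvest is not given in the labels. Because whole buds were sampled, fewer cells of a type and less RNA per cell cannot be told apart in any value that follows.

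*SEP3* (AT1G24260; TAIR10.1 chromosome 1, 8593536 to 8596123, minus strand) was measured first because it checks the labels. It had 149 and 150.1 CPM in the triple-labelled libraries, no less than the 131 and 136 CPM of *sep1 sep2*, so counts over this gene did not distinguish these genotypes. Other genes did: 10 genes of sporopollenin synthesis and export, described below, summed to 2728 and 3250 CPM in *sep1 sep2* and 253 and 189.5 CPM in the triple-labelled libraries. The *sep3* allele is not given in the sources used here, so how much of the *SEP3* baseline is mutant transcript is not known. In the SEP3 lines the level was higher, 489.5 CPM in line 1 and 332 CPM in line 2, a 2.75-fold rise with a log2 fold change of 1.46 ± 0.17 (SE) and FDR = 0.00131 in edgeR's quasi-likelihood test with Benjamini-Hochberg adjustment. All later values of log2 fold change and FDR for the SEP3 lines against the triple-labelled libraries come from this test, over all 18661 genes. Genes are called here when the log2 fold change lies beyond 1 in either direction and the FDR is under 0.05.

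With *SEP3*, 1001 genes rose and 114 fell, which is 5.36% and 0.611% of the genes tested, or 5.98% together. The median log2 fold change was 2.69 among the genes that rose and -1.26 among those that fell, against 0.00 over all genes tested. Of the genes that rose, 705 changed by more than 2 and 400 by more than 3 on the log2 scale. Among those that fell these numbers were 11 and 1. In both lines each of the 1115 called genes lay on the called side of both triple-labelled libraries, as did 27.2% of all tested genes above and 28.3% below. The filter favoured rising genes in part: 470 of the 1001 had at least 1 CPM in both lines and in neither triple-labelled library, out of 579 such genes tested. At the edge of the filter, before TMM normalization, AT2G20723 was inside with 1.012 CPM as its second highest of the 4 libraries, and *ABCB11* was just outside with 24 counts, or 1.00 CPM when rounded, in line 2. Without the second triple-labelled library the called genes numbered 728 higher and 50 lower, and 705 and 38 of the original calls were among them. Without line 2, 1000 were higher and 54 lower.

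CArG boxes were searched for in the 1000 bases before the annotated start of each gene in TAIR10.1 (RefSeq), as CC and GG around 6 bases that are each A or T, a pattern that reads the same on both strands. Such a box stood before 7.3% of the genes that rose, 11.5% of those that fell and 7.36% of all genes tested, so the genes that rose held it about as often as any other gene. It stood before 7 of 106 called genes named by the rule for named genes or as examples. The boxes of 4 of them that mark the range of the response are shown with 10 bases on either side, in capitals, 5′ to 3′ on the strand of the gene. A match describes the sequence only.
*SHP2* (rose; chr2:17819837-17819866, plus strand): aaagggattaCCAAAAAAGGaaagtttcca
AT1G30780 (rose; chr1:10927213-10927242, minus strand): tatgtgtacaCCAAATAAGGctaagaaaaa
*AIR3* (fell; chr2:1408224-1408253, minus strand): aatagaaactCCATTATTGGgacgcaatgt
*HB51* (fell; chr5:1004627-1004656, plus strand): tgggttgctcCCTTATTAGGtgaaaaaaac

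Among the other *SEP* genes none was called for the group. *SEP1* had 5.58 and 4.69 CPM in the triple-labelled libraries and 2.15 and 4.11 CPM in the lines, and was not called (FDR = 0.237). *SEP2*, whose product largely overlaps in function with *SEP3*, differed between the lines, with 15.5 and 11.5 CPM in the triple-labelled libraries, 16.6 CPM in line 1 and 108 CPM in line 2. The 2 *sep1 sep2* libraries had 79.7 and 44.5 CPM of *SEP2*. Line 1 thus stood beside the triple-labelled libraries and line 2 above all others. The group was not called for *SEP2* (log2 fold change 2.21 ± 0.73, FDR = 0.0933), and the difference between the lines had FDR = 0.0688 in edgeR's test. Line 2 alone was called (log2 fold change 3.01 ± 0.30, FDR = 0.000834) and line 1 alone was not (0.31 ± 0.33, FDR = 0.709).

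*AP1*, the A-class gene of sepals and petals, fell with *SEP3*. Its level was 383 and 371 CPM in the triple-labelled libraries, 186 CPM in line 1 and 160.4 CPM in line 2, beside 215 and 206 CPM in *sep1 sep2* (log2 fold change -1.12 ± 0.10, FDR = 0.00048). Without line 2 its log2 fold change was no longer beyond the threshold. *AP2* moved the same way by less than the fold threshold (-0.83 ± 0.13, FDR = 0.00563), and the B-class gene *PI* the other way (0.63 ± 0.13, FDR = 0.0145). For *AG*, the C-class gene of stamens and carpels, levels were 78.2 and 71.9 CPM against 75.1 and 56.9 CPM in the lines, and *AP3* had 124 and 129.8 CPM against 158 and 129 CPM. Neither was called (FDR = 0.501 and 0.383).

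**Figure D1:**
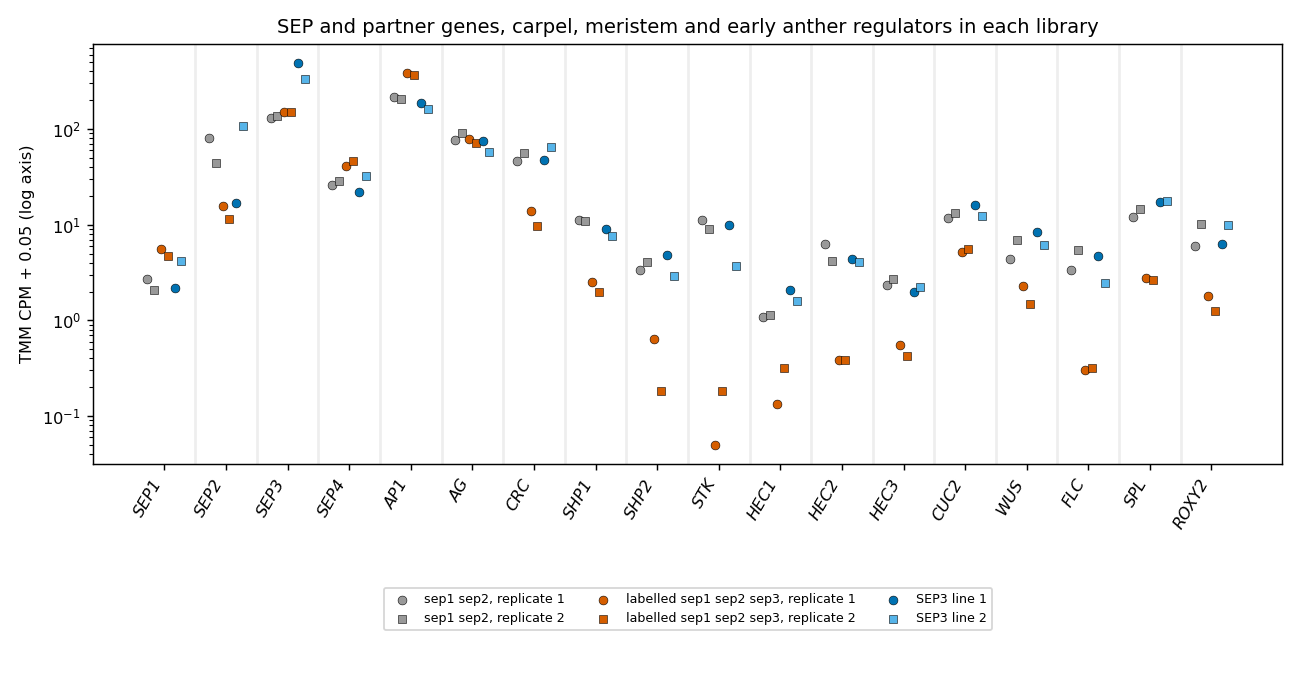
Levels of *SEP* and partner genes and of carpel, meristem and early anther regulators in each of the 6 libraries, as TMM CPM plus 0.05 on a log axis; each point is 1 library. From *CRC* to *ROXY2*, except where points lie close together, both SEP3 lines (blue) sit near *sep1 sep2* (grey) and above the triple-labelled libraries (orange), whereas *SEP2* is high in line 2 only among the lines.

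Carpel and ovule regulators returned in part. Of 21 genes on this list 18 were tested, 7 rose and none fell, against 5.36% and 0.611% of all genes tested. The median log2 fold change of the list was 0.08, with a range from -0.87 to 6.44. *STK* (AT4G09960), the MADS gene of ovule identity, had 0 and 4 counts in the triple-labelled libraries (0 and 0.135 CPM) and reached 9.92 CPM in line 1 and 3.62 CPM in line 2 (log2 fold change 6.44 ± 0.80, FDR = 0.00175). In *sep1 sep2* it stood at 11.2 and 9.02 CPM. *CRC*, a YABBY gene of carpel polarity and nectaries, rose from 14 and 9.58 CPM to 47.1 and 65.3 CPM (2.26 ± 0.22, FDR = 0.000592). More of its RNA was present in line 2. Other annotated genes overlap *SHP1*, *SHP2*, *STK*, *CRC* and *AMS*, and the strand of the reads is not known to have been used, so a part of their counts may be a neighbour's.

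*SHP1* and *SHP2*, the MADS genes of the valve margin, rose as well. *SHP1* went from 2.46 and 1.92 CPM to 9.06 and 7.61 CPM in lines 1 and 2 (log2 fold change 1.94 ± 0.22, FDR = 0.00117), and *SHP2* from 0.583 and 0.135 CPM to 4.82 and 2.86 CPM (3.48 ± 0.55, FDR = 0.00553). The bHLH genes *HEC1*, *HEC2* and *HEC3*, which act in stigma and transmitting tract, all rose. *HEC2* showed the largest rise of the 3, from 0.333 and 0.337 CPM to 4.36 and 4.03 CPM (3.63 ± 0.36, FDR = 0.00069), and *HEC3* lost its call without the second triple-labelled library (highest FDR over the alternatives 0.0544). The remaining tested carpel genes were not called, among them *SPT*, *ALC*, *ETT*, *ANT* and *BEL1*, whose log2 fold changes ranged from -0.14 to 0.08. *NGA3*, a B3 gene of style development, was lower by less than the fold threshold, with 19.8 and 20 CPM against 12.2 and 9.42 CPM (-0.87 ± 0.18, FDR = 0.0174), and was called lower in line 2 alone (-1.08 ± 0.22, FDR = 0.019). *INO*, a gene of the outer integument, had 30 counts in line 1 and none in line 2 or in the triple-labelled libraries, and was too low to be tested.

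Floral meristem genes included 2 that rose, of 9 tested, against 5.36% of all genes tested. *WUS*, the stem cell regulator of the meristem centre, rose from 2.25 and 1.45 CPM to 8.35 and 6.04 CPM (log2 fold change 1.97 ± 0.34, FDR = 0.00746), and *CUC2*, a gene of organ boundaries, from 5.16 and 5.47 CPM to 16.1 and 12.4 CPM (1.42 ± 0.18, FDR = 0.00214). The call for *WUS* was lost without the second triple-labelled library (FDR = 0.0639). *KNU* and *SUP*, which limit *WUS* and the stamen domain, were higher in both lines without passing the test (FDR = 0.094 and 0.0921). *KNU* was called in 5 of 12 alternatives, DESeq2 among them, and *SUP* in none. *FLC*, the floral repressor of the vernalization pathway, rose from 0.25 and 0.27 CPM to 4.67 and 2.42 CPM (3.75 ± 0.51, FDR = 0.00262), and in *sep1 sep2* it had 3.31 and 5.39 CPM. An annotated gene also overlaps *FLC*. The other 5 genes of flowering time and inflorescence fate were not called.

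Of the 11 genes that the study's results name as targets of *SEP3* and *AG*, 10 were tested and 8 rose, with medians of 2.03 in line 1 and 2.26 in line 2 on the log2 scale. Over all genes tested, 5.36% rose. These target genes were chosen by the study with these samples in view, so their direction is not independent evidence. The 8 are *HEC1*, *HEC2*, *SHP1*, *SHP2*, *CRC*, *SPL*, *CUC2* and *GMI1*, a gene of DNA damage response that rose from 18.4 and 22.1 CPM to 45.6 and 51.9 CPM (1.27 ± 0.12, FDR = 0.000614). *KNU* and *SUP* were the others tested. *ABCB11*, an auxin transporter gene, was left out by the filter because it exceeded 1 CPM in line 1 alone, at 7.68 CPM against 0.966 CPM in line 2 and 0.833 and 0.607 CPM in the triple-labelled libraries.

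Early anther genes gave 3 rises among 11 tested, against 5.36% of all genes tested, with a median log2 fold change of -0.17. *SPL* (AT4G27330), which starts sporogenesis in anther and ovule, rose from 2.75 and 2.56 CPM to 17.3 and 17.7 CPM, a 6.59-fold rise on which the lines differed by less than the replicates of *sep1 sep2* (log2 fold change 2.72 ± 0.17, FDR = 0.000142). *ROXY2*, a glutaredoxin gene of anther lobes, went from 1.75 and 1.21 CPM to 6.2 and 9.82 CPM (2.44 ± 0.37, FDR = 0.00468). *NUB*, a zinc finger gene of stamen shape, was called in the main comparison and in 6 of 12 alternatives (log2 fold change 1.62 ± 0.40, FDR = 0.0325, and up to 0.131). *ROXY1*, which shares its function with *ROXY2*, was lower by less than the fold threshold (-0.78 ± 0.17, FDR = 0.0211). The receptor kinase genes *BAM1*, *BAM2*, *SERK1* and *SERK2* were not called, while their relative *EMS1*, the receptor of tapetal fate, was higher by less than the fold threshold (0.71 ± 0.10, FDR = 0.00265).

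All 13 meiosis genes were higher in both lines than in both triple-labelled libraries, as were 27.2% of all genes tested. Of the 13 on the list 6 rose, against 5.36% of all genes tested, and the median log2 fold change of the list was 0.94. *ASY1*, a protein of the chromosome axis, increased from 2 and 2.43 CPM to 9.8 and 10.8 CPM (log2 fold change 2.21 ± 0.21, FDR = 0.000502). *SYN1*, the meiotic cohesin, went from 0.999 and 0.978 CPM to 4.48 and 5.76 CPM (2.37 ± 0.29, FDR = 0.00168). The others were *SPO11-1*, which makes the breaks that start recombination, *ZYP1A* of the synaptonemal complex, *MMD1* and *SWI1*. *DMC1*, *SDS* and *ZYP1B* passed the FDR threshold with log2 fold changes of 0.70, 0.94 and 0.69. Leaving out 1 library at a time gave between 4 and 6 rises on this list. Mitotic genes differed from these: none of 11 B-type cyclin, *CDKB* and *KNOLLE* genes was called or had an FDR under 0.05, with log2 fold changes from -0.09 to 0.31. At an unadjusted p under 0.05 edgeR gave 1 such gene, and DESeq2 called 0.

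All tested tapetal genes rose on 3 lists, of transcription factors, of sporopollenin and of secreted proteins, against 5.36% of all genes tested. All 8 of the transcription factor genes rose, with a median log2 fold change of 2.80, as did all 10 genes of sporopollenin synthesis and export, with a median of 3.45. In the order of the known cascade *DYT1* rose from 0.666 and 0.405 CPM to 3.93 and 5.8 CPM (log2 fold change 3.19 ± 0.40, FDR = 0.00182). *TDF1* went from 2.41 and 2.87 CPM to 16.4 and 11.2 CPM (2.38 ± 0.25, FDR = 0.000841). *AMS*, the central bHLH factor of the tapetum, stood at 22.8 and 17.6 CPM in the triple-labelled libraries and at 234 CPM in line 1 and 178 CPM in line 2, a 10.2-fold rise (3.35 ± 0.19, FDR = 9.63e-05). In *sep1 sep2* its level was 163 and 196 CPM.

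*MYB80*, which acts after *AMS*, rose from 1.92 and 1.08 CPM to 23.7 and 17.5 CPM (log2 fold change 3.81 ± 0.28, FDR = 0.000204). *MS1*, a PHD finger gene of the late tapetum, had 3.91 and 1.35 CPM in the triple-labelled libraries, 24.5 CPM in line 1 and 7.09 CPM in line 2 (2.63 ± 0.62, FDR = 0.0287). *MS1* was called in 8 of 13 alternatives and lost its call, for instance, without line 1 (highest FDR 0.169). The difference between the lines was not called for *MS1* (log2 1.79, FDR = 0.482).

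The enzymes of sporopollenin, the polymer of the outer pollen wall, all rose in both lines when each line was tested alone. *ACOS5*, which activates fatty acids for it, had 34.9 and 27.3 CPM in the triple-labelled libraries, 500.1 CPM in line 1 and 297 CPM in line 2 (log2 fold change 3.68 ± 0.26, FDR = 0.000203). *MS2*, the fatty acyl reductase of the pathway, rose from 25.2 and 12 CPM to 352 and 146 CPM (3.75 ± 0.46, FDR = 0.00168). Between these the polyketide synthases *LAP5* and *LAP6*, the reductases *TKPR1* and *TKPR2*, the hydroxylases *CYP703A2* and *CYP704B1*, the exporter *ABCG26* and *LAP3* had log2 fold changes from 2.55 to 3.57. The level was higher in line 1 for all 10 genes, with a median difference of 0.80 on the log2 scale, but no single difference between the lines was called (the lowest FDR was 0.0806, for *CYP703A2*). A higher level in line 1 was shared by 80.2% of the 1001 genes that rose, with a median difference of 0.35 on the log2 scale. The summed level of the 10 genes was 2978 CPM in line 1 and 1643 CPM in line 2. It was 2728 and 3250 CPM in *sep1 sep2* and 253 and 189.5 CPM in the triple-labelled libraries. All 10 remained called whichever library was left out.

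Genes of the callose wall and of tetrad release rose in 6 of 9 cases, against 5.36% of all genes tested. *CALS5*, the callose synthase around the meiocytes, went from 11.3 and 11.6 CPM to 50.8 and 52.8 CPM (log2 fold change 2.17 ± 0.10, FDR = 9.14e-05), and the lines were nearly level. *QRT1*, *QRT2* and *QRT3*, which dissolve the pectin that holds the tetrad together, rose with more RNA in line 1, as for *QRT3* with 15.4 and 17.7 CPM against 119 and 41.3 CPM (2.28 ± 0.44, FDR = 0.0122). *QRT3* lost its call without either triple-labelled library (highest FDR 0.0757), and *QRT1* without the second triple-labelled library or without line 1 (highest FDR 0.111). *SWEET8*, a sugar transporter of primexine formation, and AT1G33430, a galactosyltransferase family gene, rose too. *DEX1*, *NPU* and *NEF1*, which take part in the primexine and exine pattern, were not called and had log2 fold changes from 0.07 to 0.30.

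Secreted proteins of the tapetum rose in all 7 cases tested, against 5.36% of all genes tested. The list held 8 genes, and *LTP12* was left out by the filter, with 49.8 CPM in line 1 and 0 in line 2. *MEE48*, a glycosyl hydrolase family gene, was the most abundant, with 75.5 and 72.3 CPM against 819 and 470.1 CPM (log2 fold change 3.13 ± 0.24, FDR = 0.000219). The lipid-transfer family genes AT5G62080 and AT5G52160 were nearly equal in the lines, at 442 and 390.0 CPM and at 482 and 441 CPM, up from between 31.9 and 51 CPM. *A7*, of the same family, had 3.58 and 0.202 CPM in the triple-labelled libraries, 102 CPM in line 1 and 13.9 CPM in line 2 (5.05 ± 1.08, FDR = 0.0191). *ATA20* was the member with a called difference between the lines, at 369.8 CPM in line 1 and 107 CPM in line 2 (log2 1.79, FDR = 0.0187), and it stood at 32.7 and 27.9 CPM in the triple-labelled libraries. *A7* and *ATA20* were not called without the second triple-labelled library.

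**Figure D2:**
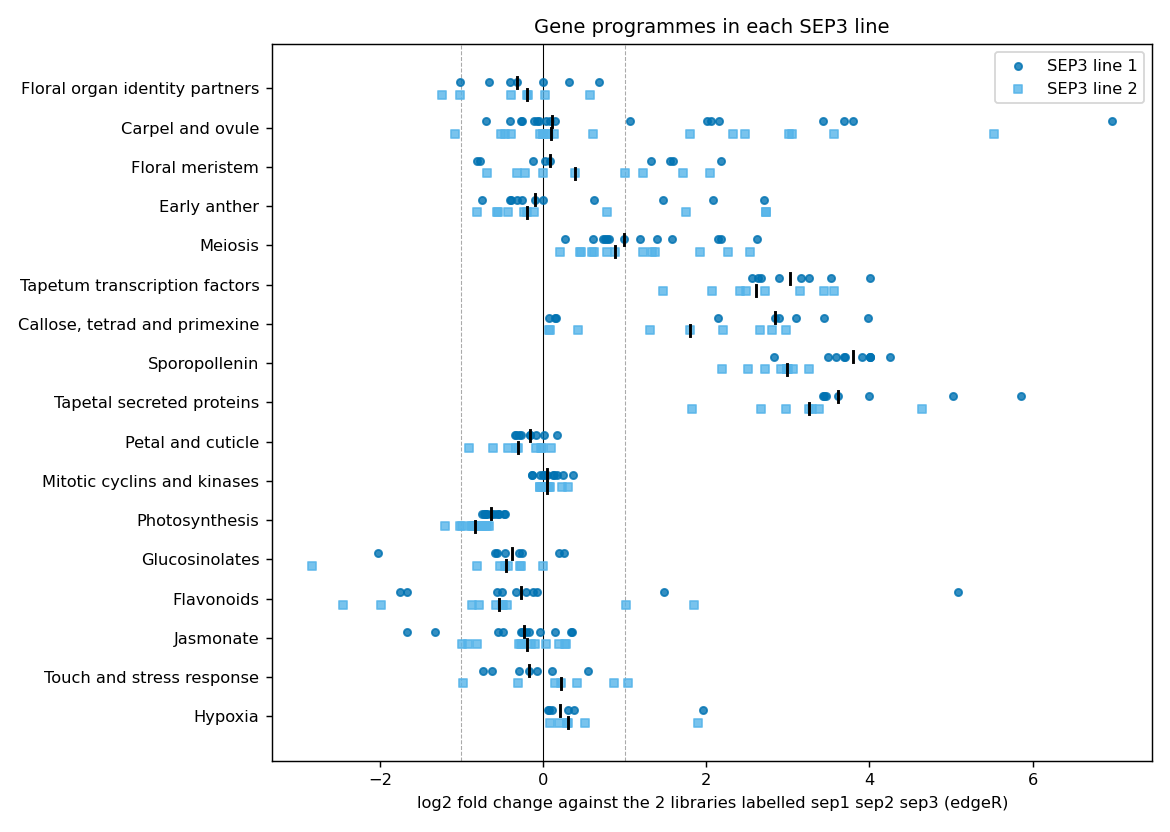
Log2 fold change of each tested gene of 17 gene lists in SEP3 line 1 (dark circles) and line 2 (light squares), each line against the same 2 triple-labelled libraries; black ticks are medians and dashed lines mark the fold threshold. Tapetal, sporopollenin and secreted protein genes lie to the right of the threshold in both lines, mitotic genes lie around 0 and photosynthesis genes lie below 0.

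Several pollen coat genes, which act late in the tapetum, were found mostly in line 1, while others on the same list did not follow this. On the list of 13 genes only 5 were tested, because the glycine-rich oleosins *GRP14*, *GRP18*, *GRP19* and *GRP20*, the lipase genes *EXL4* and *EXL6*, the glucosidase family gene *ATA27* and *GRP16* did not reach 1 CPM in 2 libraries. *ATA27* had 0.0833 and 0.0675 CPM in the triple-labelled libraries, 44.1 CPM in line 1 and 0 in line 2. *GRP19* had no count in line 2 or in either triple-labelled library and 518 counts, or 15.9 CPM, in line 1, at least 141-fold above a floor of 3 counts per library. In *sep1 sep2* both genes were present, at 145 and 38.6 CPM and at 34.5 and 10 CPM.

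Of the tested lipase genes on the list AT1G75880 was lower by less than the fold threshold for the group (log2 fold change -0.75 ± 0.18, FDR = 0.0338) and was called lower in line 2 alone (-1.04 ± 0.18, FDR = 0.00986). AT1G75890 and AT1G75900 were not called (log2 fold changes -0.09 and -0.46), and AT1G75920 rose from 0.167 and 0.337 CPM to 3.32 and 1.37 CPM (3.18 ± 0.64, FDR = 0.0144), a call lost in 3 of 12 alternatives. The median of the 5 tested genes was -0.09, and the level summed over the list was 93.0 and 109.8 CPM in the triple-labelled libraries, 195 CPM in line 1 and 65.3 CPM in line 2.

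*GRP17*, the oleosin gene with the highest level in line 1, passed the filter with 0.833 and 0.675 CPM in the triple-labelled libraries, 25.9 CPM in line 1 and 2.58 CPM in line 2. Its call (log2 fold change 4.27 ± 1.12, FDR = 0.0431) was lost in 7 of 12 alternatives. *LTP12*, a lipid-transfer gene of the same stage, had 0.167 and 0.0675 CPM against 49.8 CPM in line 1 and 0 in line 2. The *GRP* genes lie in a cluster of related copies, and reads that matched several places were left out by the authors, so their levels are uncertain.

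Tapetal phenolamide genes behaved likewise. *SHT*, which joins hydroxycinnamic acids to spermidine for the pollen surface, had 2 and 0 counts in the triple-labelled libraries, 33.1 CPM in line 1 and 0.322 CPM in line 2, and *TSM1*, a methyltransferase of the same pathway, had 0.167 and 0.27 CPM, 56 CPM and 0.403 CPM. *CYP98A8* and *CYP98A9*, the hydroxylases, stood at 16 and 5.25 CPM in line 1 and 3.46 and 2.09 CPM in line 2, with between 1.28 and 2.16 CPM in the triple-labelled libraries, and were not called by edgeR (FDR = 0.0739 and 0.171, with both unadjusted p under 0.05) or by DESeq2. In a fit of all 25458 genes with a count, added as an alternative without the filter, the difference between the lines was called for *SHT*, *TSM1*, *ATA27*, *LTP12*, *GRP18*, *GRP19*, *EXL4*, *EXL6* and *ABCB11*, with FDR from 2.802e-05 to 0.0408 in edgeR's test. That fit called 95 genes higher in line 1, of which 33 were left out by the filter, and 17 higher in line 2, of which none was left out. The *sep1 sep2* libraries also differed in these genes, as shown by *SHT* at 73.7 and 37.6 CPM and *TSM1* at 119.5 and 72.3 CPM.

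**Figure D3:**
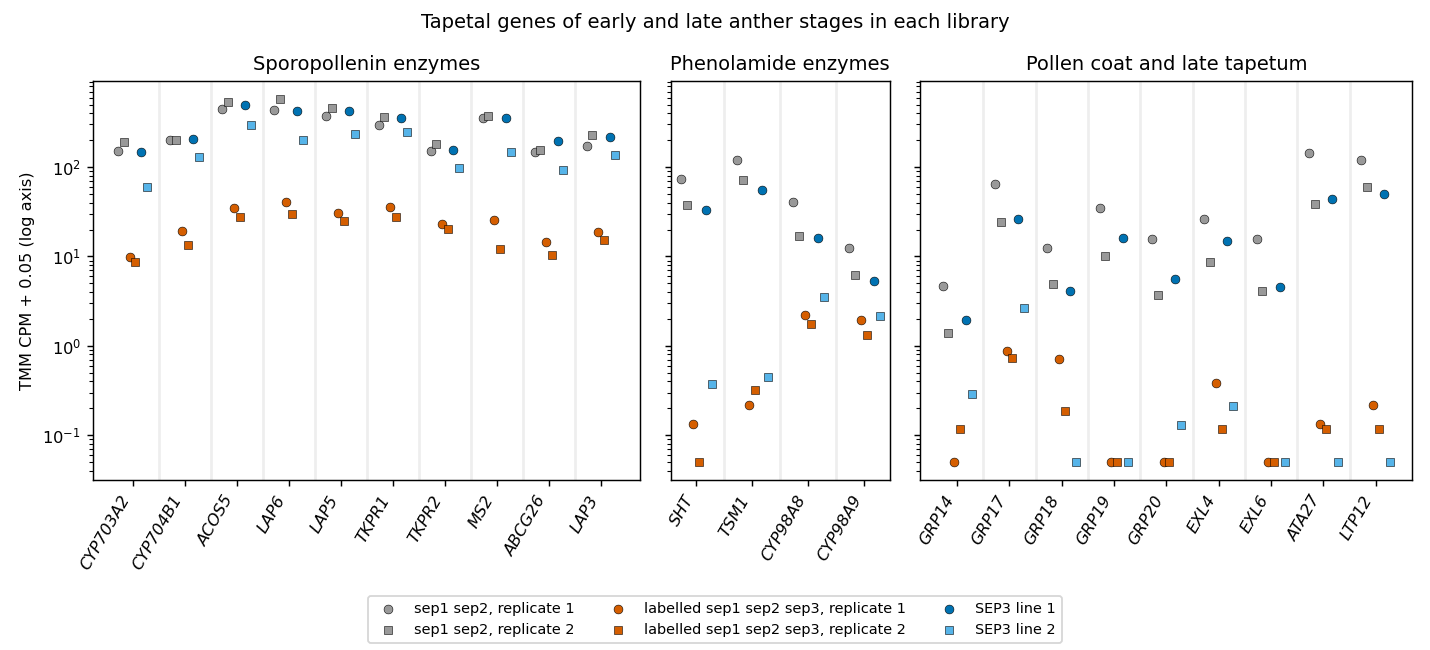
Levels of sporopollenin, phenolamide and pollen coat genes in each of the 6 libraries, as TMM CPM plus 0.05 on a log axis; each point is 1 library. For sporopollenin genes line 2 (light squares) lies just under line 1 (dark circles), whereas for *SHT*, *TSM1*, *ATA27* and *GRP19* it lies close to the triple-labelled libraries (orange).

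Of 10 genes of stamen maturation and dehiscence 4 were tested. *MYB21*, *MYB24* and *DAD1*, which act in filament growth and dehiscence, had no counts in any of the 6 libraries. *MYB26*, which controls the thickening of the endothecium, was the gene of this list that rose, from 0.0833 and 0.27 CPM to 4.95 and 3.74 CPM (log2 fold change 4.53 ± 0.46, FDR = 0.000729). The other tested genes, *ARF6* and *ARF8* of auxin response and *NST1* of wall thickening, were not called (log2 fold changes -0.11, -0.21 and -0.39), and *MYB57*, *NST2* and *MYB108* stayed at or below 0.553 CPM in each library. Genes of petal shape and cuticle were present in all libraries, with summed levels of 1465 and 1545 CPM in the triple-labelled libraries and 1389 and 1214 CPM in the lines. Of 9 tested none was called by edgeR or DESeq2, and log2 fold changes ranged from -0.60 to 0.14. At an unadjusted p under 0.05, 4 of these were lower.

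The largest rises by the rule for named genes (mean of at least 5 CPM over the 4 libraries) were AT1G20150, AT1G30780, AT2G28680, *PUP6*, AT5G16920, AT3G57620, AT4G14815, AT5G11130, *A7*, AT5G54010, *AAT1* and AT1G02813, with log2 fold changes from 4.89 to 6.67. AT1G20150, a subtilisin family gene that overlaps a neighbour, had 0.749 and 0 CPM in the triple-labelled libraries, 63.8 CPM in line 1 and 5.64 CPM in line 2 (6.67 ± 1.35, FDR = 0.0148). AT1G30780, an F-box associated gene, went from 0.333 and 0.27 CPM to 31.8 and 13.8 CPM (6.24 ± 0.53, FDR = 0.000326). AT5G11130, an exostosin family gene, was the most alike in the lines, with 0.874 and 0.405 CPM against 28.7 and 19 CPM (5.26 ± 0.33, FDR = 0.000142). All 12 had more RNA in line 1, as did 80.2% of the 1001 genes that rose. AT4G14815 and AT5G54010 lost their calls in 7 of 12 alternatives each.

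In some gene families, as named by their annotated product, most tested members rose, with similar medians in both lines. These families were picked after their values were seen, so the counts are a description. Over all genes tested, 5.36% rose. Of 13 tested genes described as ubiquitin carboxyl-terminal hydrolase-related, 10 rose, with a median log2 fold change of 1.70 in line 1 and 1.62 in line 2. Of 9 genes with a DUF577 domain 8 rose (2.96 and 2.88), and of 7 genes with paired amphipathic helices 6 rose (4.22 and 3.76). Members of such families are close copies, and the split of reads among them is uncertain. The lines were also close for *AGO9*, an Argonaute of the reproductive tissues, which rose from 24.9 and 24.2 CPM to 136 and 111 CPM (2.33 ± 0.12, FDR = 9.6e-05), and for *AGO5*, with 31.3 and 31.4 CPM against 129.8 and 90.4 CPM (1.81 ± 0.16, FDR = 0.000416).

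The genes that fell with *SEP3* numbered 114, and their changes were smaller. The largest falls by the rule were *AIR3*, *ESM1*, *CA2*, *MSRB5*, *LDOX*, *LHB1B1*, AT4G19430, AT1G80130, AT3G55240, *EXPA8*, *NF-YA10* and AT1G47860.1, with log2 fold changes from -2.73 to -1.60. *AIR3*, a subtilisin family gene, had 24.7 and 25.5 CPM in the triple-labelled libraries, 4.48 CPM in line 1 and 2.98 CPM in line 2 (log2 fold change -2.73 ± 0.22, FDR = 0.000253). *ESM1* (AT3G14210), which shifts glucosinolate breakdown towards isothiocyanates, stood at 693 and 669 CPM against 167 and 95.6 CPM in the lines (-2.37 ± 0.24, FDR = 0.000689), and the lines lay below the 284 and 240.2 CPM of *sep1 sep2*. The other 7 tested genes of glucosinolates were not called.

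Of the transcription factor genes that fell, *GPRI1*, a GARP factor of chloroplast development also known as *GLK1*, had 131 and 149 CPM in the triple-labelled libraries and 53.8 and 39 CPM in the lines (log2 fold change -1.59 ± 0.16, FDR = 0.000634). *NF-YA10*, a subunit of the CCAAT-binding complex, went from 53.6 and 52.6 CPM to 20.2 and 13.5 CPM (-1.65 ± 0.18, FDR = 0.000919). *WOX1*, a homeobox gene of blade outgrowth, and *HB51*, a homeobox gene of bract and leaf shape also known as *LMI1*, fell by 1.27 and 1.35 on the log2 scale (FDR = 0.00649 and 0.00319). *GPRI1*, *WOX1* and *HB51* were chosen after their values were seen.

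Photosynthesis genes were lower in both lines by a small and uniform amount. Their summed level was 22790 and 26630 CPM in the triple-labelled libraries and 16180 and 13940 CPM in lines 1 and 2. Both lines thus lay below *sep1 sep2* too, at 20150 and 19900 CPM. None of the 12 on the list passed the fold threshold in edgeR or DESeq2, but all 12 had an FDR under 0.05, with log2 fold changes from -0.92 to -0.57 and a median of -0.72, and 1067 of all 18661 genes were lower at that FDR. Over the alternatives the highest FDR ran from 0.0233 for *LHCA2* to 0.253 for *RBCS3B*, and *LHCA2* was the one gene of the list that stayed under the threshold in each of them. *LHCA2*, of the photosystem I antenna, had 973 and 1043 CPM in the triple-labelled libraries and 599 and 545 CPM in the lines (-0.82 ± 0.10, FDR = 0.00199). Antenna and carbonic anhydrase genes outside the list passed both thresholds: *CAB3* had 2750 and 3150 CPM against 1462 and 1183 CPM (-1.16 ± 0.14, FDR = 0.00151), and *LHB1B1* 75.3 and 85.1 CPM against 23.3 and 23.1 CPM (-1.79 ± 0.15, FDR = 0.000287). These antenna genes are near-identical copies, so the share of reads that each received is uncertain. *CAB3* was picked as an example outside the rule for named genes. Levels of *LHB1B1* in the lines lay below the 53.4 and 39.5 CPM of *sep1 sep2*. Clock genes, which gate antenna genes through the day, differed between libraries as given above, and their part in these values was not tested.

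**Figure D4:**
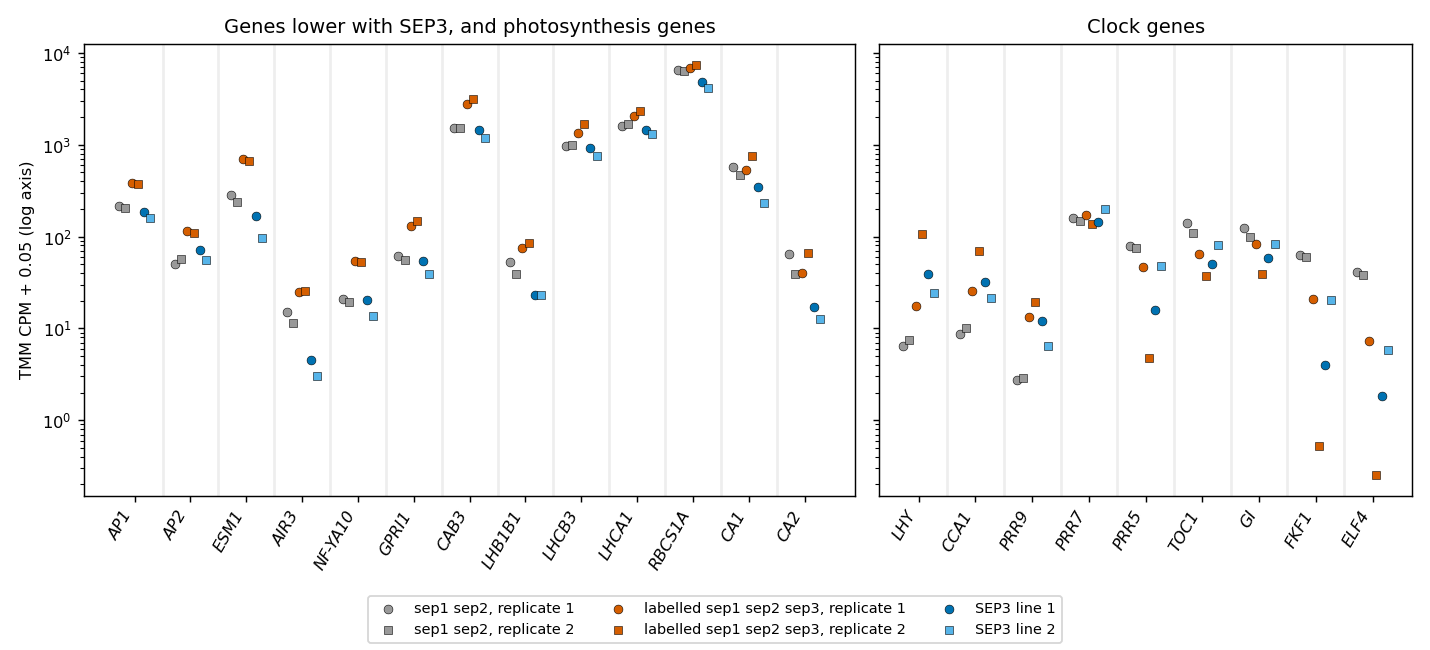
Levels of genes that were lower with *SEP3* and of photosynthesis genes (left) and of 9 clock genes (right) in each of the 6 libraries, as TMM CPM plus 0.05 on a log axis; each point is 1 library. Both SEP3 lines (blue) lie below the triple-labelled libraries (orange) in the left panel, whereas the clock genes *LHY*, *PRR5*, *FKF1* and *ELF4* split the libraries of a genotype.

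Flavonoid genes moved in both directions. *F3'H*, which adds a hydroxyl group to the B ring, rose from 33.8 and 44.9 CPM to 110.4 and 79.6 CPM (log2 fold change 1.27 ± 0.21, FDR = 0.00646), above the 38.6 and 52.4 CPM of *sep1 sep2*. The anthocyanin genes *DFR* and *LDOX* fell, but the triple-labelled libraries differed from each other, with 3.75 and 10.3 CPM of *DFR* and 6.24 and 14.4 CPM of *LDOX*. In the lines *DFR* had 2.09 and 1.29 CPM (FDR = 0.0368), and its call was lost in 7 of 12 alternatives. Of 12 jasmonate genes tested *AOC1* and *AOC2*, copies of allene oxide cyclase, fell (log2 fold changes -1.11 and -1.30, FDR = 0.0213 and 0.0241). In each case the call was lost without the second triple-labelled library. None of the 7 touch and stress genes tested was called by edgeR or DESeq2 or had an unadjusted p under 0.05. Of 6 hypoxia genes *PDC1*, a pyruvate decarboxylase, rose from 2.58 and 2.7 CPM to 10.3 and 9.82 CPM (1.93 ± 0.25, FDR = 0.00223).

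The libraries of the 2 lines differed in the size of the change. With 1 library each, a difference between lines cannot be told apart from the spread between libraries. Tested alone against the same 2 libraries, line 1 had 983 genes higher and 59 lower, which is 5.27% and 0.316% of those tested, or 5.58% together, and line 2 had 878 higher and 151 lower, which is 4.7% and 0.809%, or 5.51% together. These 2 comparisons share their control libraries, so their values are given side by side only. Among the 1001 genes that rose, the median log2 fold change was 2.84 in line 1 and 2.46 in line 2, and 803 of them, or 80.2%, had more RNA in line 1, against 8960 of all 18661 genes tested. Among the 114 that fell the medians were -1.20 and -1.45, and 84 had more RNA in line 1, so line 2 lay farther down. Relative to the mean of *sep1 sep2* the genes that rose stood at a median ratio of 1.23 in line 1 and 0.99 in line 2, with 0.174 in the triple-labelled libraries, and 7 of the 1001 were called higher and 1 lower than in *sep1 sep2*. Over all genes tested, 54 were higher (0.289%) and 111 lower (0.595%) in the lines than in *sep1 sep2*, or 0.884% together. The genes that fell stood at 0.741 and 0.643 of the level in *sep1 sep2*, and 12 of the 114 were called lower than in it.

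A direct test between the lines called 20 genes higher in line 1 and 5 higher in line 2, or 0.107% and 0.0268% of those tested and 0.134% together. Each line is a single library here, so the test borrows the spread from the other genotypes. The 20 include *ATA20*, *KCS15*, the cytochrome P450 gene CYP86C3 and AT4G28397, annotated as lipid-transfer-like. They also include the phenylalanine ammonia-lyase gene PAL4, ABCG29, annotated as pleiotropic drug resistance 1, and the sugar transporter gene *STP14*. Not all of the 20 rose more in line 1. CSLA01 had 179 and 177 CPM in the triple-labelled libraries, 209 CPM in line 1 and 97 CPM in line 2. AT1G04660 had 63.2 and 71.2 CPM, 68.4 CPM and 27.5 CPM in the same order. AT5G13380, a GH3 family gene, had 0.916 and 0.0675 CPM in the triple-labelled libraries, 66.9 CPM in line 1 and 1.21 CPM in line 2 (log2 difference 5.79, FDR = 0.0187). *KCS15*, a ketoacyl-CoA synthase, had 0.541 and 0.945 CPM, 28.3 CPM and 2.01 CPM (3.81, FDR = 0.0246), and *MYB99*, a MYB gene of the tapetum, 0.916 and 0.54 CPM, 24.3 CPM and 2.58 CPM (3.23, FDR = 0.029). Line 2 alone was not called against the triple-labelled libraries for AT5G13380 (FDR = 0.363) and *KCS15* (FDR = 0.118), but was for *MYB99* (log2 fold change 1.85 ± 0.40, FDR = 0.0259).

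Of the 5 genes higher in line 2, *DIN10*, a raffinose synthase family gene induced in the dark, had 54.5 and 42.8 CPM in the triple-labelled libraries, 75.6 CPM in line 1 and 275 CPM in line 2, beside 188 and 183 CPM in *sep1 sep2* (log2 difference -1.86, FDR = 0.0187). AT3G15450 had 149 and 159 CPM, 215 CPM in line 1 and 632 CPM in line 2 (-1.55, FDR = 0.0297). *G6PD4*, a glucose-6-phosphate dehydrogenase gene, and AT5G22920 were other such genes. AT2G05540, a glycine-rich protein gene, had 0.208 and 0.135 CPM in the triple-labelled libraries, 1.2 CPM in line 1 and 18.1 CPM in line 2, beside 6.38 and 3.88 CPM in *sep1 sep2*, and each line alone was called higher (FDR = 0.019 and 0.000167). *ASN1* and *SEN1*, which are likewise induced in the dark and were chosen after their values were seen, had 117 and 219.8 CPM and 3.9 and 28.1 CPM in lines 1 and 2, and neither difference was called (FDR = 0.557 and 0.103). The difference for *SEN1* was called in 7 of 10 alternatives (lowest FDR 4.41e-07) and that for *ASN1* in none of them. Clock genes did not all move the same way between the lines. Of 9 such genes 3 had more RNA in line 1, *LHY* among them, and the others did not. *FKF1* had 3.99 and 20.2 CPM in lines 1 and 2. The part of clock genes in these differences was not tested.

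The remaining locus called between the lines that is named here was chosen after its values were seen. AT1G10160.1, which the RefSeq table does not annotate, had 13.2 and 13 CPM in the triple-labelled libraries and 9.92 CPM in line 1, but no count in line 2 and 0.558 and 0.334 CPM in *sep1 sep2* (FDR = 0.00833 between the lines).

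**Figure D5:**
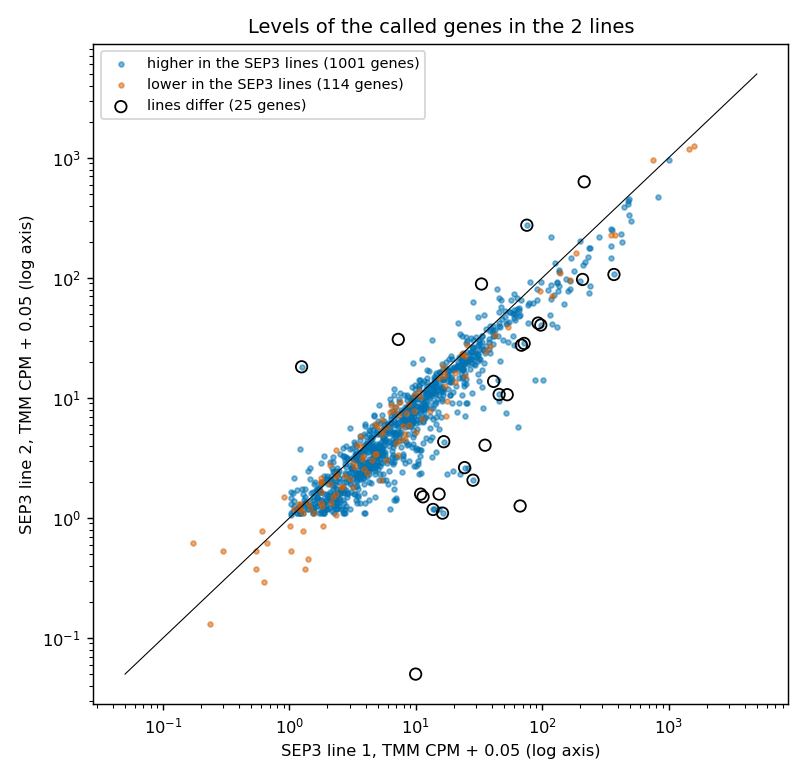
Level in SEP3 line 1 (x axis) against SEP3 line 2 (y axis) of the 1001 genes that rose and the 114 that fell with *SEP3*, as TMM CPM plus 0.05 on log axes; circles mark the 25 genes called between the lines, and the diagonal marks equal levels. Most points lie close to the diagonal and more of them below it, where line 1 is higher.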

How the data were processed

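RNA of inflorescences was sequenced as read pairs from poly(A)-selected libraries. Reads were mapped to TAIR10 by the authors using STAR without multimapping and counted per gene with featureCounts, per the paper's methods. The paper names default parameters for featureCounts without stating the strand setting. Software versions are not given in the sources used here. The authors deposited whole-number counts without normalization for 33610 genes in each library. Between 85.9 and 88.3% of counts from 1 to 20 were even in every library, as when both mates of a pair are counted. The deposited comparison tables, holding the authors' own fold changes and p-values, were not used.

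Counts of all 6 libraries entered one fit with a mean per genotype, or with each line on its own, in edgeR 4.0.16 (R 4.3.3, limma 3.58.1) with TMM normalization and the quasi-likelihood test, which left 3 and 2 residual degrees of freedom. Genes needed 1 CPM in 2 of the 4 libraries compared. Thresholds were a log2 fold change of 1 and a Benjamini-Hochberg FDR of 0.05. Each SE is the log2 fold change over the root of its F statistic. Lower bounds used a floor of 3 counts per library, which covers counting error only. The comparison of groups was tried on simulated data with the same spread for every gene, and the test between lines was not. Nothing in the sources says that the libraries labelled *sep1 sep2 sep3* come from separate plants, so p-values measure the spread between these libraries. Libraries of a group differed by more than sampling noise. Of the 33610 locus IDs, 28932 matched RefSeq (TAIR10.1), which also gave the sequences shown.

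Members and gene lists were chosen with earlier results of these data known, and the clock list after its values were seen. Genes shown as examples outside the rule for named genes, such as *CAB3*, *AGO9* and *AGO5*, were picked by hand. Named genes were the *SEP* genes and *AG*, targets the study names, members of the gene lists, the 12 largest rises and 12 largest falls among called genes above a mean of 5 CPM with both lines on the same side of both libraries labelled *sep1 sep2 sep3*, and the 6 largest differences between lines in each direction above that level. The alternatives were RLE normalization, DESeq2 1.42.0, no filter, a filter of 5 CPM, no fold threshold, a replicate block, a fit of the 4 libraries alone and leaving out each library. Counts divided by 2 were added after seeing the data.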

Additional observations from a re-analysis of the deposited data

Results flagged for a closer look

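The lines differed, by a test of the difference itself, in 20 genes higher in line 1 and 5 higher in line 2. Each line is 1 library, so these differences cannot be told apart from the spread between libraries. On the log2 scale, the largest differences in favour of line 1 were 5.79 for AT5G13380, 3.95 for AT4G28397, a lipid-transfer-like gene, and 3.81 for *KCS15*. Next came 3.59 for AT5G14980, 3.31 for the sugar transporter gene *STP14* and 3.23 for *MYB99*. In favour of line 2, line 1 minus line 2 came to -3.91 for AT2G05540, -2.09 for *G6PD4*, -1.86 for *DIN10*, -1.55 for AT3G15450 and -1.43 for AT5G22920. With DESeq2 the difference was not called for AT5G13380 and AT4G28397, and with a filter of 5 CPM not for *G6PD4*, AT3G15450 and AT5G22920. AT4G28397 was also not called in the fit of the 4 libraries alone.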

How the results depend on the processing

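The count of genes that rose came to 1461 without a filter, 512 with the filter of 5 CPM and 1316 by FDR alone, in place of 1001. The count that fell came to 73 with the filter of 5 CPM and to 1067 by FDR alone in place of 114. Fewer genes entered with the stricter filter. Leaving out each library in turn gave from 728 to 1000 rises and from 50 to 160 falls, with the lowest counts without the second library labelled *sep1 sep2 sep3*. Without line 2 falls numbered 54. RLE normalization, DESeq2 and counts divided by 2 (chosen after seeing the data) kept at least 991 of the 1001 rises and 107 of the 114 falls, and no gene called in the main comparison changed direction in any setting that tested it. Between lines, genes higher in line 1 numbered 52 with DESeq2, 95 without a filter, 3 with the filter of 5 CPM and from 34 to 91 when a library was left out, against 20, and genes higher in line 2 numbered 17 with DESeq2, 17 without a filter, 1 with the filter of 5 CPM, 8 in the fit of the 4 libraries alone and from 10 to 35 when a library was left out, against 5. For differences between the lines, the library left out was never 1 of the 2 lines. Each log2 difference thus rested on the same 2 libraries throughout. Line 1 alone gave 557 genes with the filter of 5 CPM and from 1047 to 1140 when a library was left out, against 1042. Line 2 alone gave 622 with the filter of 5 CPM, 1736 by FDR alone and from 987 to 1236 when a library was left out, against 1029. The cause of these shifts was not tested beyond the filter. Of 107 named genes that were called, 42 lost the call in at least 1 setting. Same-numbered libraries did not deviate together (correlations of -0.137, -0.152 and -0.064). With 2 libraries a group this cannot show whether the replicate numbers pair the libraries, and the labels do not say. With the replicate block 962 genes rose and 90 fell. Genes near 1 CPM rest on few counts, and with 2 libraries a group the residual spread is poorly known.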
